A study of Rattus norvegicus with 9 samples.

Results

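A pair of calcium-handling loci was examined in the lumbar dorsal root ganglia (DRGs) of rats with and without a nerve injury: the Stac2 locus on chromosome 10 (chr10:85930000-86140000) and the Atp2b4 locus on chromosome 13 (chr13:49930000-50140000), both in the rn6 build. Members were all accessible regions lying wholly inside these windows of 210 kb. There were 28 at the Stac2 locus and 30 at the Atp2b4 locus, 58 of the 186719 accessible regions of the series. The windows were drawn around 1 accessible region each that the study lists with Stac2 or Atp2b4 among the regions more accessible after injury, so both loci were selected on the same difference described here. Differences between injured and naive rats are therefore given as a description, with no p-value for any member. Where members are counted as called, the count is descriptive too.

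Female Sprague-Dawley rats with chronic constriction injury (CCI), in which loose ligatures are tied around the sciatic nerve, were compared with naive rats that had no operation. The study's methods give 14 days after surgery as the time of sampling. The age is given as 12 to 16 weeks in one place and as 8 to 10 weeks in another. DRGs of levels L4 to L6 were taken, and the assay for transposase-accessible chromatin with sequencing (ATAC-seq) was run on 1 rat per library, with 2 CCI and 3 naive rats. A list of regions carrying monomethylated lysine 4 of histone H3 (H3K4me1) came from chromatin immunoprecipitation (ChIP-seq) of 2 CCI and 2 naive samples, each pooled from 3 rats, and holds positions without levels or conditions. A DRG holds sensory neurons together with glia and other cells. In such bulk tissue a change in the number of cells of a type and a change in accessibility per cell cannot be told apart, and naive rats differ from CCI rats by the operation itself as well as by the ligatures.

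Calcium entering a sensory neuron through voltage-gated channels governs transmitter release, excitability and transcription, and it has to be cleared again after firing. STAC2 is an adaptor protein with SH3 and cysteine-rich domains that binds L-type voltage-gated calcium channels and slows their inactivation. ATP2B4 is a plasma membrane calcium pump that expels calcium from the cytosol at the cost of ATP. Among the genes around Stac2, Cacnb1 encodes an auxiliary beta subunit of voltage-gated calcium channels, Fbxl20 the substrate-binding part of a ubiquitin ligase, Rpl19 a ribosomal protein and Arl5c a small GTPase. In the RefSeq annotation of a later build (GRCr8) the order was Plxdc1, Arl5c, Cacnb1, Rpl19, Stac2, Fbxl20 and Med1. Atp2b4 lay between Lax1, a lymphocyte adaptor, and Optc and Prelp, which encode small leucine-rich proteoglycans of the extracellular matrix. H3K4me1 is found at enhancers, active or poised, and on the shoulders of active promoters.

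Promoter sequences are shown for the genes with which the study lists regions of the windows. The table of RefSeq promoters (GRCr8) held 3 of the 5 symbols looked for. Each sequence is the 250 bases before the transcription start, written 5′ to 3′ on the gene's strand, with capitals marking matches to the motifs searched. Fbxl20 lies at chr10:83639122-83639371 on the minus strand, Atp2b4 at chr13:47758877-47759126 on the minus strand and Arl5c at chr10:83488293-83488542 on the minus strand.
Fbxl20: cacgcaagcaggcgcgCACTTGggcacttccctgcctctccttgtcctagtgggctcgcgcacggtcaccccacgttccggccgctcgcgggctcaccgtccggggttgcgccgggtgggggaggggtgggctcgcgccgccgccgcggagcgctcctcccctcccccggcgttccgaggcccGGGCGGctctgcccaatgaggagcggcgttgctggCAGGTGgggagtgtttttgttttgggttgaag
Atp2b4: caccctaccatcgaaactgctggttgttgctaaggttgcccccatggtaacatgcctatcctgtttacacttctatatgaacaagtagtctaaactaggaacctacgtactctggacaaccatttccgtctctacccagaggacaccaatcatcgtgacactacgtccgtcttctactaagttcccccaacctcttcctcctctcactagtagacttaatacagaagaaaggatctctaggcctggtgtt
Arl5c: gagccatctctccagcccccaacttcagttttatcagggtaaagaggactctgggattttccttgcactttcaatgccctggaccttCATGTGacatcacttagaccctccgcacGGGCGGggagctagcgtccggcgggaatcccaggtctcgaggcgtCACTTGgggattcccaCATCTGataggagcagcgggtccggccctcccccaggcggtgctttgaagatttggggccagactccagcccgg

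The Fbxl20 promoter was of the CpG-rich kind, with 72.0% G+C and 29 CpG dinucleotides, where the medians over 33469 promoters of that length were 51.2% and 5. The Atp2b4 promoter had 46.4% G+C and 6 CpG, and the Arl5c promoter 59.6% and 12. Both strands were searched for 6 motifs. An E-box (CANNTG, in 65.5% of all promoters) matched 2 times in Fbxl20 and 3 times in Arl5c, and a GC-box (GGGCGG, in 30.5%) matched 1 time in each. The AP-1 site TGANTCA (6.34%), the cAMP response element TGACGTCA (1.59%), the C/EBP site TTGCNNAA (9.22%) and the RUNX site TGTGGT (14.5%) had no match in any of the 3 windows, and the Atp2b4 promoter held none of the 6 motifs. The GRCr8 positions cannot be set beside the rn6 positions of the accessible regions, so which region covers which of these bases was not analysed here.

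The accessible regions were 150 to 1827 bp long at the Stac2 locus and 150 to 1053 bp at the Atp2b4 locus. They were somewhat denser than around them: 13.3 regions per 100 kb at Stac2 against 11.9 in the flanks, and 14.3 per 100 kb at Atp2b4, where the flanks held 200 regions in 2 Mb. Flanks here are the 1 Mb on each side of a window, with 238 regions at Stac2. Levels are normalised reads per region, that is, reads divided by the library's size factor. The naive mean had a median of 10.2 over the Stac2 regions and of 18.4 over the Atp2b4 regions, against 15.5 and 13.7 in their flanks and 9.36 over all regions. Libraries held 4633807 to 13248437 reads in regions. The size factors correct for depth, but shallow libraries still have fewer reads per region. A library-wide difference remained after them. By medians of ratios of the normalised reads, CCI rat 1 stood at 1.10, CCI rat 2 at 1.02 and the naive rats at 0.95 to 1.03. Of the members, 4 at Stac2 and 3 at Atp2b4 had at least 1 rat at 3 reads or fewer.

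Signal at both loci was concentrated in a few regions. The 3 regions with the highest levels held 54.8 to 64.7% of all normalised reads of the Stac2 locus in the 5 rats, and 38.4 to 43.9% at the Atp2b4 locus. At Stac2 these were regions 27, 1 and 10, numbered along the chromosome, with region 27 the one the study lists as the promoter of Fbxl20. At Atp2b4 they were regions 2, 1 and 27, the first pair next to each other at the left end of the window. These levels were not divided by length. Per 100 bp, the naive means of Atp2b4 regions 2, 1 and 27 were 22.1, 16.8 and 4.79, where the locus median was 4.84. Those of Stac2 regions 27, 1 and 10 were 12.2, 10.7 and 8.32, where the locus median was 4.11.

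**Figure D1:**
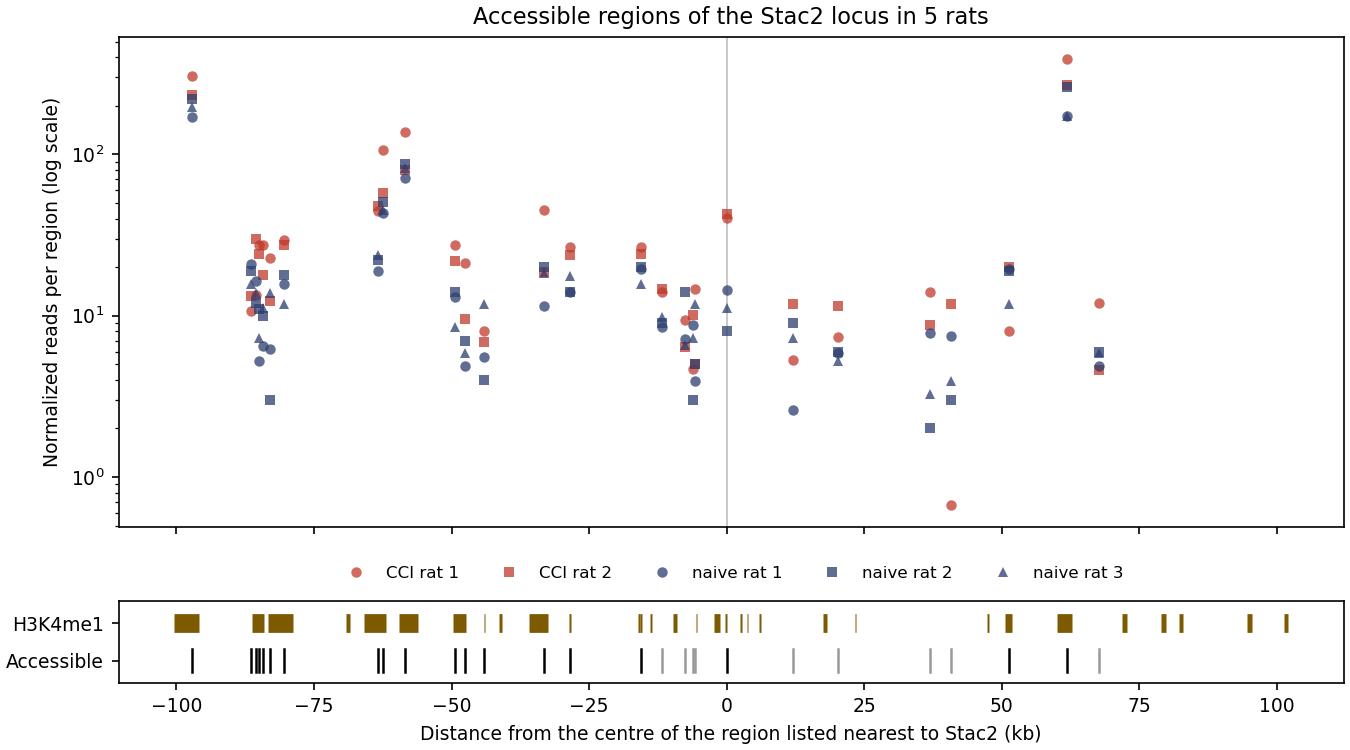
Normalised reads per accessible region of the Stac2 locus in each of the 5 rats (log axis), against position relative to the listed Stac2 region; points are rats (red CCI, blue naive), and the strip below places H3K4me1 (brown) and accessible regions (black with H3K4me1, grey without). Regions 1 and 27 stand highest in every rat, at 171.21 or more, while the listed region sits at 40.05 and 42.58 in the CCI rats and at 8 to 14.38 in the naive rats.

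H3K4me1 overlapped 19 of the 28 Stac2 regions (67.9%) and 18 of the 30 Atp2b4 regions (60.0%), with 1 shared base as the minimum. Around Stac2 the share was alike in the flanks (67.2%), and both were above chromosome 10 as a whole (45.8%) and all regions (31.3%). Around Atp2b4 the flanks had 46.5% and chromosome 13 26.8%. Of the overlapping regions 14 at Stac2 and 12 at Atp2b4 lay entirely within H3K4me1. Regions with the mark were longer and held more reads per region. At Stac2 the median length was 443 bp with H3K4me1 and 155 bp without, with median naive levels of 15.3 and 6.28. At Atp2b4 the lengths were 372 and 191 bp, with levels of 24.0 and 9.62. These levels were not divided by length, so they do not compare accessibility per base.

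The H3K4me1 list itself placed 31 regions of 201 to 4513 bp in the Stac2 window, covering 39940 bp or 19.0% of it, and 32 regions of up to 8948 bp in the Atp2b4 window, covering 38048 bp or 18.1%. The flanks were covered to 20.8% and 15.2%. An accessible region was present in 14 of the 31 at Stac2 (45.2%) and in 14 of the 32 at Atp2b4 (43.8%), against 38.8% and 22.5% in the flanks and 22.9% of all 211440 H3K4me1 regions. The longest stretch at Atp2b4 held regions 1, 2 and 3. At Stac2 a stretch of 2178 bp held regions 2 to 5 and one of 4513 bp regions 6 and 7, so that 6 accessible regions stood within about the same neighbourhood, at -86.4 to -80.4 kb from the listed region.

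After CCI, accessibility was higher at most regions of both loci, and it was higher around them as well. The region listed with Stac2 had the highest fold change of its locus, 3.69-fold in the means, and the region listed with Atp2b4 was 2.26-fold higher. Fold changes below are on the log2(normalised reads + 1) scale, CCI minus naive, with n = 2 CCI and 3 naive rats throughout. The pseudocount of 1 makes the change of low regions smaller than their ratio. The standard error (SE) is from limma. Regions that overlap H3K4me1 were fitted among themselves, and the SE of the others came from a fit of all accessible regions.

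The Stac2 locus had a median log2 fold change of 0.60, with quartiles of 0.39 and 1.03 and a range from -0.59 to 1.83. Its flanks had a median of 0.63, 0.64 on the left and 0.62 on the right, chromosome 10 had 0.49 and all regions 0.13. Of the 28 regions 24 were above 0 (85.7%), against 93.7% in the flanks and 58.1% over all regions. In 15 of the 28 (53.6%) both CCI rats were above all naive rats, where this held for 18.2% of all accessible regions and for 51.7% of the flanking ones. Region 2 alone had both CCI rats below all naive rats, which held for 11.0% of all regions. In the remaining 12 the groups overlapped.

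The Atp2b4 locus had a median of 0.49, with quartiles of 0.10 and 0.75 and a range from -1.01 to 1.73. Its flanks had a median of 0.53 (0.61 on the left, 0.50 on the right), while chromosome 13 as a whole had 0.11. Here 24 of 30 regions were above 0 (80.0%), against 91.5% in the flanks and 58.1% over all regions. Both CCI rats were above all naive rats in 10 of the 30 (33.3%), against 44.5% in the flanks and 18.2% over all regions. None had the opposite order, which held for 11.0% of all regions, and the groups overlapped in the other 20.

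A region was counted as called here at limma p below 0.01, among accessible regions that overlap H3K4me1. The study itself used DiffBind and states a more permissive threshold, so this is not its rule. Over the whole series the limit used here called 3066 of 58445 such regions (5.25%), of which 1962 were higher after CCI (3.36%) and 1104 lower. With libraries rescaled by medians of ratios, this split was 1161 higher and 2030 lower. At the Stac2 locus 7 of 19 regions were called, all higher, and at the Atp2b4 locus 1 of 18. In the flanks there were 29 of 160 (18.1%) at Stac2 and 6 of 93 (6.45%) at Atp2b4, all higher. Since the windows were drawn around called regions, these counts carry no evidence about the loci. Without CCI rat 1 the Stac2 count was 3 and the Atp2b4 count 0, with 3 and 0 in their flanks, and the series then had 269 regions higher and 1740 lower, the opposite split. Without naive rat 1 the counts were 3 and 1, with 7 and 2 in the flanks. Without CCI rat 2 the Atp2b4 count was 3, with 11 in its flanks, and the Stac2 flanks had 49. Without naive rat 3 the Stac2 flanks had 14.

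**Figure D2:**
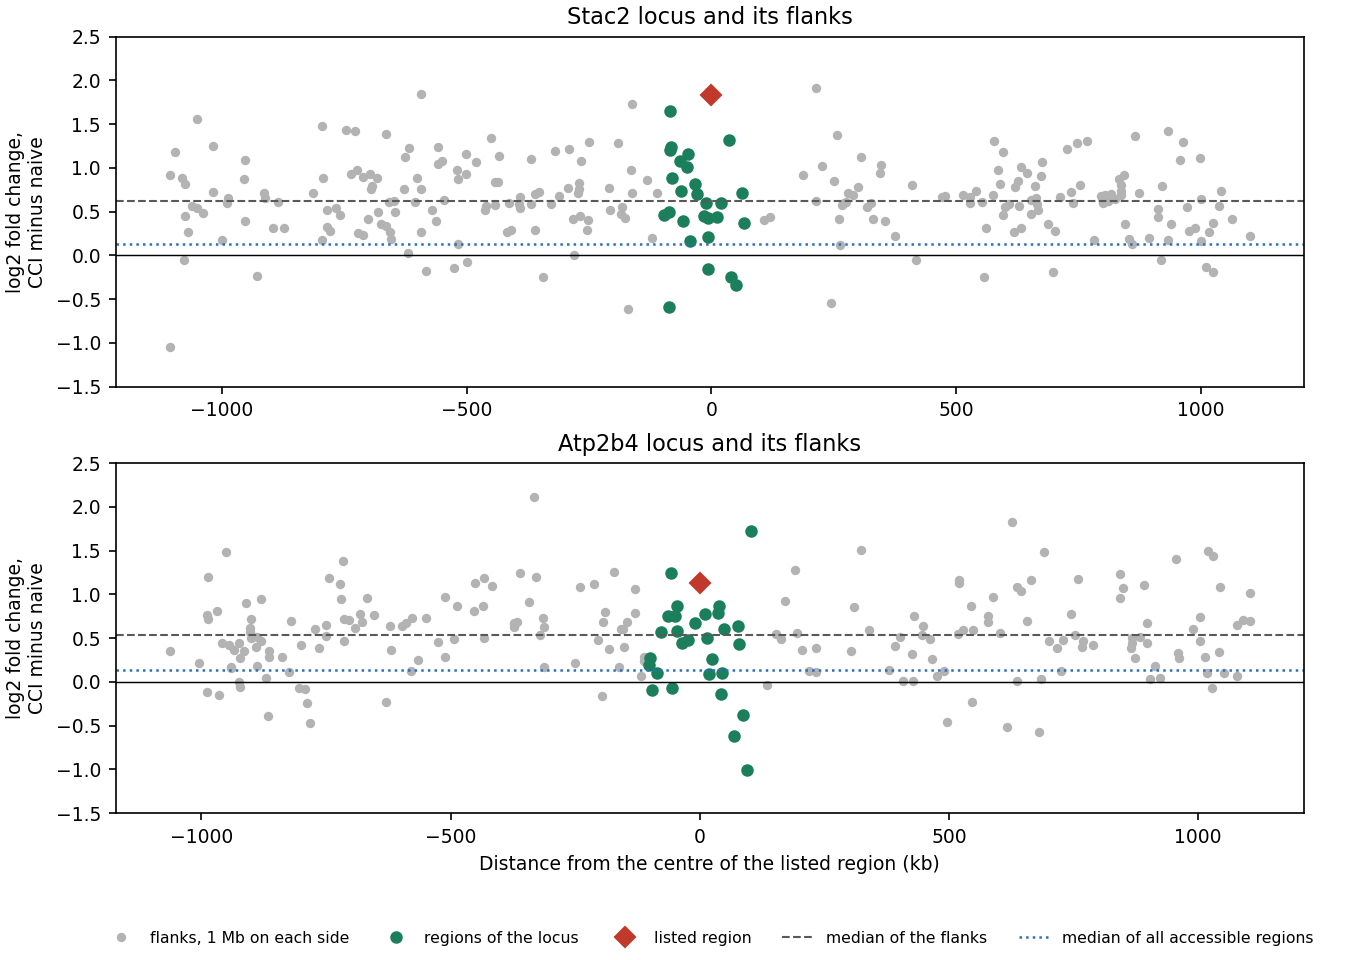
Log2 fold change (CCI minus naive) of every accessible region of each locus and of the 1 Mb on each side, against distance from the listed region; green points are the loci, grey ones the flanks, dashed lines the flank medians (0.63 and 0.53) and the dotted line the median of all regions (0.13). The points of the loci lie among the flanking ones except for the lowest Atp2b4 regions, -0.62 and -1.01, and the listed Stac2 region (diamond) stands near the top at 1.83.

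The listed Stac2 region, region 21 (chr10:86036954-86037667, 714 bp), was covered for 49.9% of its length by an H3K4me1 region of 356 bp. Its normalised reads were 40.05 and 42.58 in the CCI rats and 14.38, 8 and 11.17 in the naive rats, from 60, 93, 44, 8 and 17 reads. The groups did not overlap, and naive rat 2, the shallowest library, had the lowest value. The log2 fold change was 1.83 (SE 0.360), the highest of the locus and the third of the 266 regions of locus and flanks. In the naive rats the region had 1.57 normalised reads per 100 bp, rank 27 of 28 in the locus, where the median was 4.11. The region was listed for being higher after CCI, so a low naive level is tied to that choice.

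The listed Atp2b4 region, region 15 (chr13:50033105-50033676, 572 bp), lay entirely in an H3K4me1 region of 1717 bp. Its normalised reads were 48.73 and 38.00 in the CCI rats and 21.56, 17 and 19.06 in the naive rats. All CCI values were above all naive values, with a log2 fold change of 1.13 (SE 0.324). Regions 30 and 7 of the same locus had higher fold changes from far fewer reads, and with the flanks region 15 ranked 23 of 230. Its naive level per 100 bp was 3.36, rank 24 of 30, where the median was 4.84. Here too a low naive level is tied to the choice of the region.

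Because the surroundings were higher too, each rat's values were also taken relative to the median of its own flanking regions. The listed Stac2 region was 0.52 and 0.88 above the flank median on the log2 scale in the CCI rats, and at -0.01, -1.08 and -0.52 in the naive rats. The difference in means was 1.24, below the 1.83 that did not take the flanks into account. The listed Atp2b4 region was 1.11 and 1.01 above its flank median in the CCI rats, and 0.75, 0.36 and 0.44 above in the naive rats, a difference of 0.55. The groups did not overlap in either region after this step, and the naive rats of Stac2 spread by more than 1 log2 unit. Since both regions were listed for being higher after CCI, this order is a description and no separate support. How many other regions have it relative to the flanks was not counted.

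Taken over all their regions, the loci had fold changes close to those of their flanks, but this depended on which regions were counted. The median of region-wise changes relative to the flanks was 0.01 at Stac2, with 15 of 28 regions above 0, and -0.09 at Atp2b4, with 12 of 30. With only the regions that overlap H3K4me1 in locus and flanks, it was 0.27 at Stac2 and 0.19 at Atp2b4, where the sign turned. The median level of the Stac2 locus was below its flank median by a lesser amount in the CCI rats (-0.32 and -0.29) than in the naive rats (-0.49, -0.61 and -0.44). At Atp2b4 the locus median was above the flanks by 0.21 and 0.26 in the CCI rats and by 0.13, 0.51 and 0.39 in the naive rats, with overlapping groups. Of all reads of locus and flanks together, the Stac2 locus held 8.47 and 8.49% in the CCI rats and 8.21, 7.80 and 8.68% in the naive rats. For Atp2b4 the shares were 13.6 and 13.2%, against 13.5, 14.3 and 14.2%. Neither share separated the groups.

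**Figure D3:**
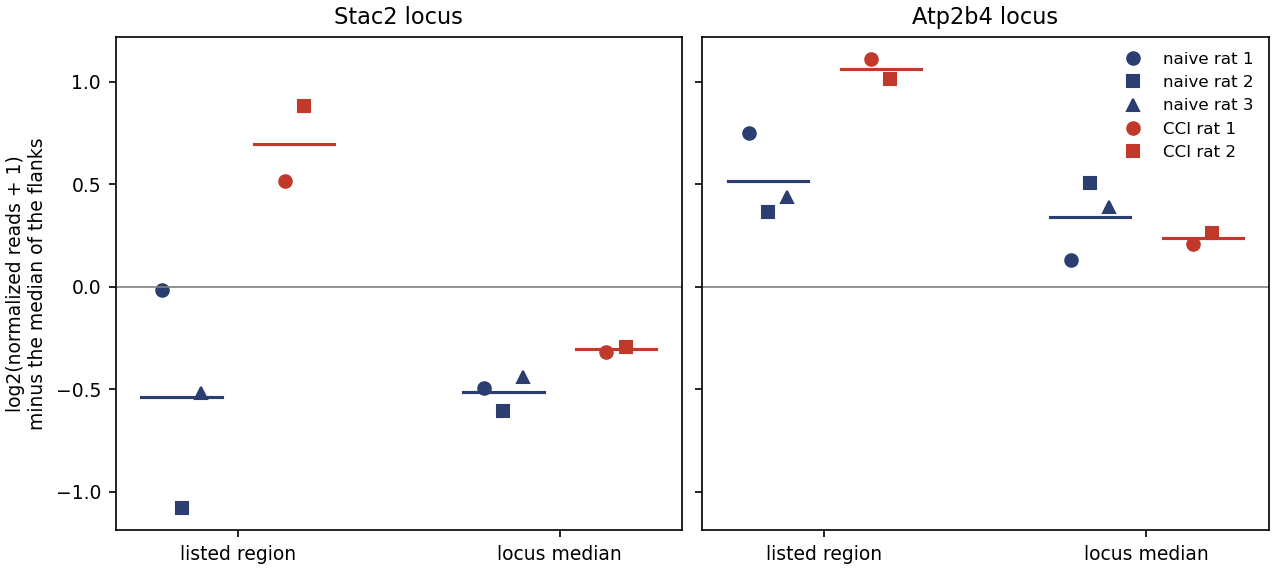
Level of the listed region and median level of all regions of each locus, per rat, relative to the median of the flanking regions of the same rat (log2 units); points are rats and lines group means. The listed regions, around which the windows were drawn, and the Stac2 locus medians lie higher in both CCI rats than in all naive rats. The Atp2b4 locus medians of the groups overlap.

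Among the other regions of the Stac2 window, the pair that the study lists with Cacnb1 was described for that gene and outside the rule for naming regions, after its values had been seen, as were regions 3 and 5. Region 8 (chr10:85973655-85974097) had 44.72 and 48.07 normalised reads in the CCI rats and 18.95, 22 and 23.66 in the naive rats. Region 9 (chr10:85974562-85975092), listed as the Cacnb1 promoter, had 106.81 and 57.23 against 43.45, 51 and 45.34. Both sat in 1 H3K4me1 region of 3852 bp, and in both the CCI rats were above all naive rats. Their log2 fold changes were 1.08 (SE 0.316) and 0.74 (SE 0.278), but in region 9 the higher CCI mean rested mostly on CCI rat 1.

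Region 4 (chr10:85952246-85952568), listed with Arl5c, came second in the locus, at 27.37 and 24.26 in the CCI rats against 5.23, 11 and 7.23 in the naive rats, a log2 fold change of 1.65 (SE 0.430). Its neighbours in the same H3K4me1 stretch did not all have this order. Region 5 had 27.37 and 17.85 against 6.53, 10 and 11.17 and a log2 fold change of 1.21, and region 3 had 13.35 and 29.76 against 16.34, 12 and 13.80. Region 2, with 23.7% of its length under H3K4me1, had 10.68 and 13.28 against 20.91, 19 and 15.77, so that both CCI rats were below all naive rats, with a log2 fold change of -0.59 (SE 0.388). Region 3, in which the groups overlapped, lay between region 2 and the pair with the opposite order.

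The regions of the Stac2 window with the highest levels had smaller fold changes than the listed one. Region 27, the Fbxl20 promoter (chr10:86098281-86099933), had 389.84 and 271.03 normalised reads in the CCI rats and 171.86, 260 and 172.82 in the naive rats. CCI rat 2 was only slightly above naive rat 2, and the log2 fold change was 0.71 (SE 0.258), 0.12 above the flanks. Region 1 had 307.07 and 234.40 against 171.21, 219 and 196.48, a log2 fold change of 0.46 and -0.13 relative to the flanks. Region 10 had 136.85 and 80.58 against 71.23, 87 and 82.14, where CCI rat 2 fell among the naive rats.

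To the right of the listed region lay 7 regions, of which region 27 had by far the highest level. Region 26 had a naive mean of 16.8 normalised reads, above the locus median of 10.2. The others had naive means of 4.38 to 6.28. Region 24 had the third highest fold change of the locus, 1.32 (SE 0.675), with 14.02 and 8.70 normalised reads in the CCI rats and 7.84, 2 and 3.29 in the naive rats, which is 2 reads in naive rat 2. Region 26 had 8.01 and 20.14 against 19.60, 19 and 11.83, and region 25 had 0.67 and 11.90 against 7.51, 3 and 3.94. In both of these the groups overlapped and the CCI rats differed from each other by more than the group means did, with log2 fold changes of -0.34 and -0.25. In region 25 the group means ran the other way, 6.29 in the CCI and 4.82 in the naive rats, since CCI rat 1 had a single read, and with a pseudocount of 10 its log2 fold change turned positive. Regions 24 and 25 had no H3K4me1. The other 19 regions of the locus, besides the 9 named by rule, had naive means of 5.60 to 46.6 normalised reads and log2 fold changes of -0.16 to 1.24.

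At the Atp2b4 locus the regions with the highest levels differed less between the groups than the listed one. Region 2 (chr13:49932656-49933708), in the H3K4me1 stretch of 8948 bp, had 331.10 and 234.40 normalised reads in the CCI rats and 218.25, 265 and 213.57 in the naive rats, with a log2 fold change of 0.27. Region 1 had 55.41 and 59.97 against 54.89, 68 and 34.17, and region 27 had 62.08 and 45.78 against 30.39, 40 and 49.94. Their log2 fold changes were 0.19 and 0.43. The groups overlapped in these 3 regions, and each had a smaller fold change than the flanks.

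**Figure D4:**
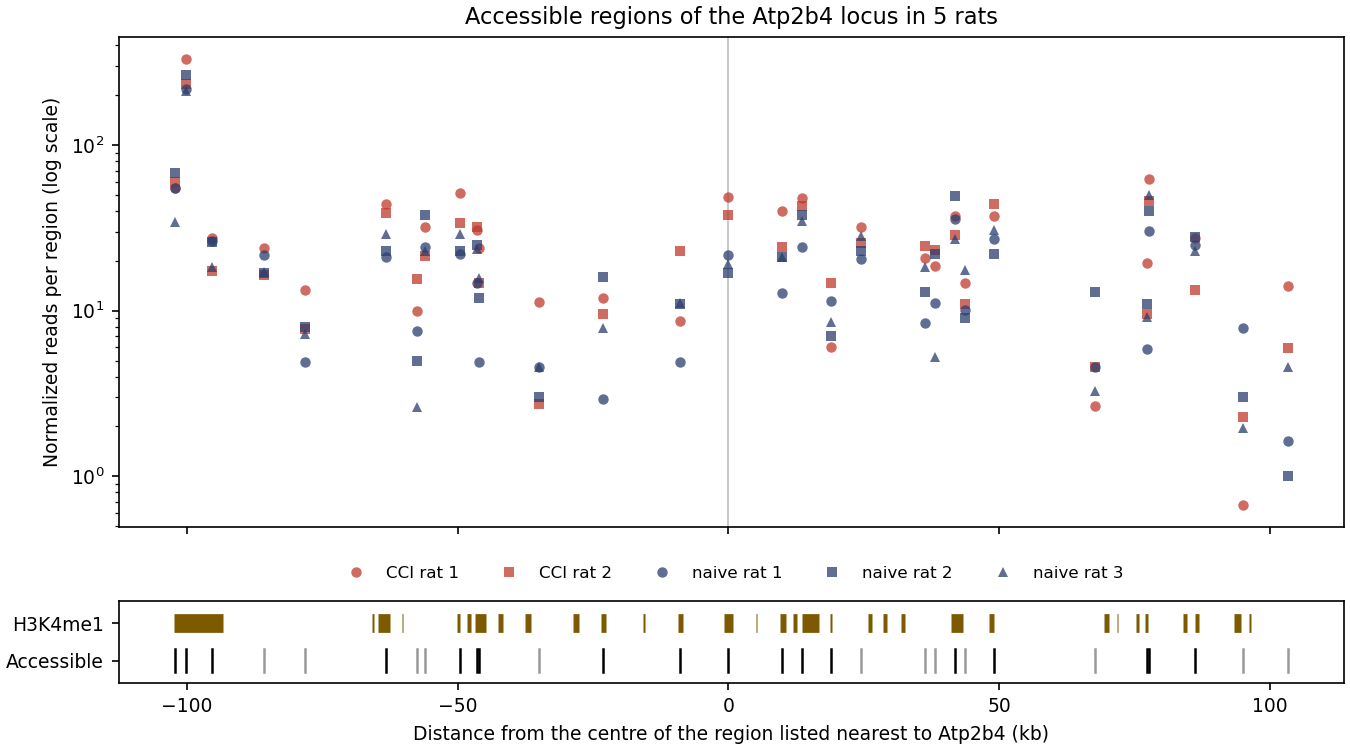
Normalised reads per accessible region of the Atp2b4 locus in each of the 5 rats (log axis), against position relative to the listed Atp2b4 region (red CCI, blue naive), with H3K4me1 (brown) and accessible regions (black with H3K4me1, grey without) in the strip below. The listed region lies at 38.00 and 48.73 in the CCI rats and at 17 to 21.56 in the naive rats, while region 2 at the left stands at 213.57 or more in every rat with the groups mixed.

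Both regions of the Atp2b4 window with higher fold changes than the listed one were weak and without H3K4me1. Region 30, the last of the window, had 14.02 and 5.95 normalised reads against 1.63, 1 and 4.60, and a log2 fold change of 1.73 (SE 0.899). Region 7 had 10.01 and 15.57 against 7.51, 5 and 2.63, and one of 1.24 (SE 0.606). In both the CCI rats were above all naive rats, on 21 and 13 reads against 5, 1 and 7 in region 30. Their SEs were wider than the 0.324 of the listed region.

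The lowest fold changes of the Atp2b4 window all lay in its right part. Region 29 had 0.67 and 2.29 normalised reads against 7.84, 3 and 1.97, a log2 fold change of -1.01 (SE 1.23) that is smaller than its error. Region 25 had 2.67 and 4.58 against 4.57, 13 and 3.29, with -0.62 (SE 0.781), and here naive rat 2 alone was high. Region 28, in H3K4me1 and with more signal, had 27.37 and 13.28 against 24.83, 28 and 23.00, where CCI rat 1 was level with the naive rats and only CCI rat 2 was low. The other 21 regions, besides the 9 named by rule, had naive means of 4.06 to 37.2 normalised reads and log2 fold changes of -0.13 to 0.86.

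**Figure D5:**
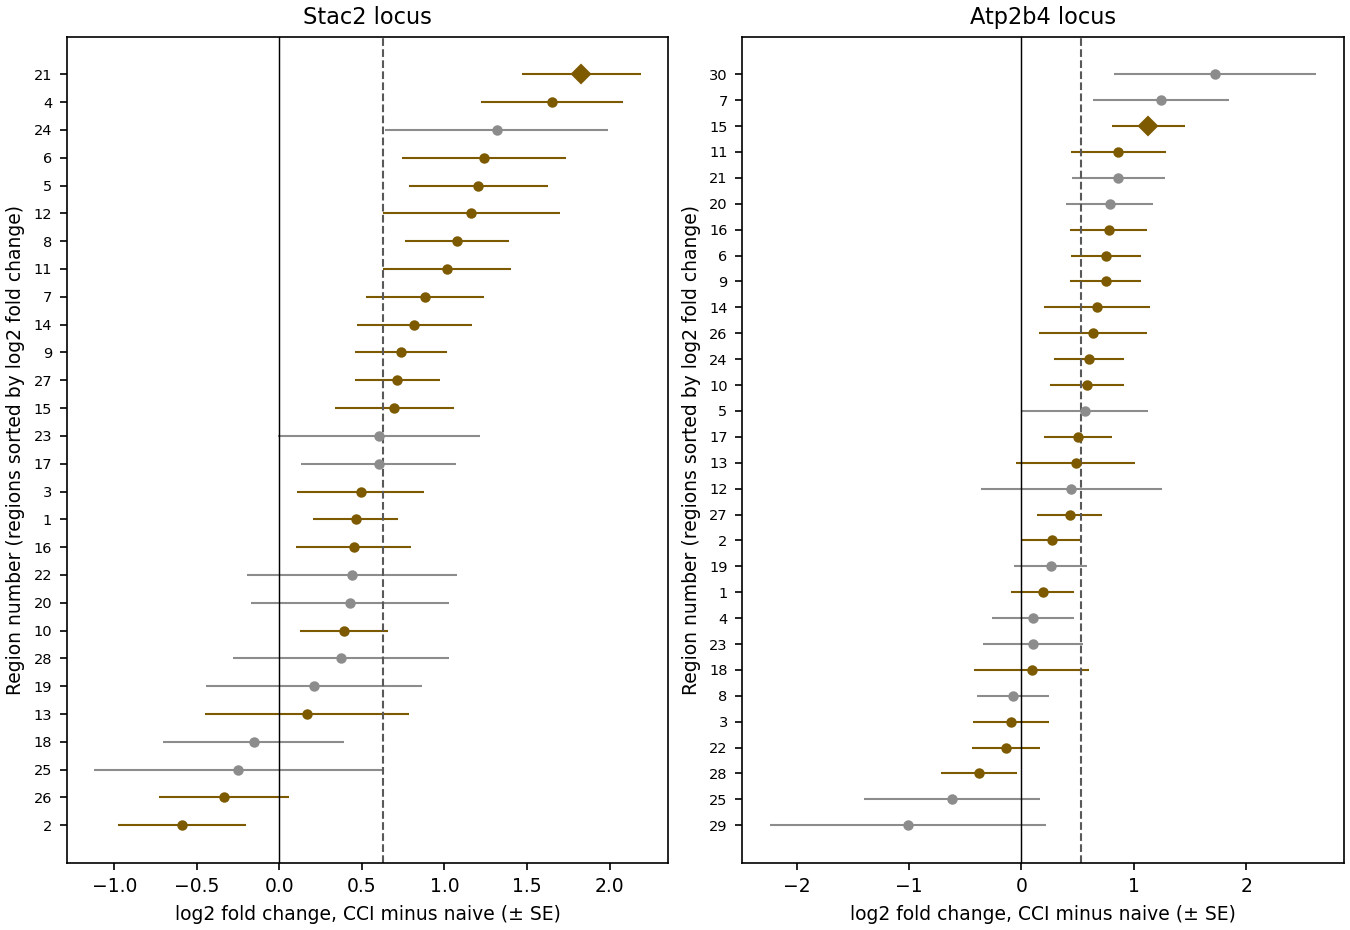
Log2 fold change (CCI minus naive) of each of the 28 Stac2 and 30 Atp2b4 regions, sorted, with bars of 1 SE; brown regions overlap H3K4me1, grey ones do not, the diamond is the listed region and the dashed line the flank median. The listed region is the highest of the Stac2 locus, and the 2 regions above the listed one at Atp2b4 have the wider bars.

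Regions with H3K4me1 had a higher median fold change than those without it at both loci, and in the flanks the order was the other way. No test was made of this. At Stac2 the median was 0.74 in the 19 regions with the mark and 0.43 in the 9 without, where the flanks had 0.60 and 0.73. At Atp2b4 it was 0.54 with and 0.35 without, where the flanks had 0.45 and 0.64. The listed regions, around which the windows were drawn, carry the mark, and the flanks were not chosen in this way. Without the listed regions the medians with the mark were 0.73 at Stac2 and 0.50 at Atp2b4. At Stac2 both CCI rats were above all naive rats in 12 of 19 regions with and 3 of 9 without the mark. At Atp2b4 this held in 7 of 18 and 3 of 12. The counts with the mark include the listed regions. That order held in 20.4% of all regions with the mark and in 18.2% of all accessible regions. In the flanks it held in 51.7% at Stac2 and 44.5% at Atp2b4. The regions of the loci without the mark were lower in reads, and the part of that in these values was not tested. At the edges of the windows, the nearest region outside Stac2 on the left had a log2 fold change of 0.72 and the first inside 0.46, and on the right the last inside had 0.37 and the nearest outside 0.41. For Atp2b4 these values were 0.28 and 0.19 on the left, and 1.73 and -0.04 on the right.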

How the data were processed

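ATAC-seq libraries came from 2 CCI and 3 naive rats, 1 rat each, grouped by the sample labels. The text of the study gives different numbers in different places, and the labels were followed. The authors aligned reads to rn6 with Bowtie2, kept mapping qualities of at least 10, centred fragments of 150 bp on the transposase cuts, called regions with MACS2, merged them and counted the reads in each. The deposited signal is reads per region divided by a size factor of the library, and at least 99.6% of the values gave whole reads (tolerance 0.01). The deposited H3K4me1 list is another kind of file, holding merged positions without a level.

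Members and lists were chosen with earlier results of these data known. Regions wholly inside the windows were taken, and overlap with H3K4me1 needed 1 bp (bedtools 2.31.1). Values were compared as log2(signal + 1) with limma 3.58.1 (trend, two-sided, p below 0.01, in place of the study's DiffBind and its more permissive threshold) over the 58445 regions that overlap H3K4me1. The SE of other regions came from a fit of all 186719. Flanking values were taken within each rat. The fit was tested on simulated data with 200 changed regions, where it recovered 82.1% of those changed by a log2 fold change of 2 and 51.1% of those changed by 1, and called 0.944% of unchanged ones. The simulated libraries had no library-wide difference such as the one seen here, and changed regions were drawn only above a minimum level. These shares therefore do not measure false or missed calls in the rats. Regions named by rule were the listed region of each locus and, in each locus, the regions with the highest and lowest fold changes and the highest levels. Alternatives were other pseudocounts, filters, scalings, flanks, thresholds and overlaps, edgeR 4.0.16, DESeq2 1.42.0, a block on the replicate number and the omission of single rats. Levels at cell type markers and at a wider list of calcium genes need an rn6 annotation and were not analysed here. Figures were drawn with matplotlib 3.10.9. Libraries held 4633807 to 13248437 reads in regions, and counting error limits regions with few reads.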

Additional observations from a re-analysis of the deposited data

How the results depend on the processing

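Of the values recomputed under the alternatives, 112 stayed close to the main value and 29 did not. For fold changes, close meant the same sign and a shift smaller than the spread between rats of a group. For counts of calls it meant within a fixed ratio of the main count, and for shares within its 95% confidence interval. Of the 29, 3 turned sign. With a pseudocount of 10 the log2 fold change of the listed region was 1.29 at Stac2 and 0.87 at Atp2b4, the Stac2 median was 0.40 and its median relative to the flanks turned to -0.015. Without the lowest 25% by mean level, the latter was 0.14. With only regions that overlap H3K4me1 in locus and flanks, the median relative to the flanks was 0.27 at Stac2 and 0.19 at Atp2b4, where it turned sign. The log2 fold change of the listed Atp2b4 region relative to these flanks was then 0.77. Requiring H3K4me1 regions of at least 1 kb left 33.3% of the Atp2b4 regions with an overlap. The cause of these shifts was not tested.

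Leaving out each rat in turn, the listed Stac2 region ranged from 1.63 to 2.01 and from 0.97 to 1.497 relative to its flanks, and the Stac2 median from 0.59 to 0.85 and from -0.024 to 0.17, the negative value being without naive rat 2. The listed Atp2b4 region ranged from 0.95 to 1.31 and from 0.47 to 0.66, and the Atp2b4 median from 0.29 to 0.57 and from -0.23 to -0.03. Calls ranged from 3 to 9 at Stac2, from 0 to 3 at Atp2b4 and from 1477 to 4181 in the series.

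At p below 0.05 the calls were 11, 5 and 8736, and at an adjusted p below 0.05 they were 2, 0 and 438. The whole reads recovered from the signal gave 3361 calls in the series with edgeR and 1572 with DESeq2, which made 4 at Stac2. Median-of-ratios rescaling also gave 4 at Stac2, lowered the median over all regions from 0.13 to 0.03 and turned the sign of 3 Atp2b4 regions.

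With the replicate number as a replicate block the series had 1416 calls, Stac2 5 and Atp2b4 1, and the listed regions had log2 fold changes of 1.85 and 1.13. No CCI rat has the number of naive rat 3, and these fold changes equalled those without naive rat 3. The rats are different animals, and same-numbered rats had correlations of -0.09 and -0.07 in their deviations from the group means. With 2 CCI rats these deviations mirror each other, so the correlations cannot show whether the number pairs rats.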
